A study of Homo sapiens with 6 samples.

Results

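The interferon response and antigen presentation genes described here are 46 human genes in 3 groups: 9 genes of MHC class I and its peptide loading, 9 IRF and STAT factors and receptors, and 28 interferon-induced effectors. A probe set was taken as a member when the platform annotation named 1 of these genes alone, with former symbols matched by Entrez number. Under this rule 45 of the 46 genes were measured, by 90 of the 54675 probe sets on the array, while STAT2 was not analysed here. Over the whole array 19775 genes had a probe set of their own. The cells were HT29, an established line from a colon adenocarcinoma. Of 6 samples 3 were labelled NS398-treated and 3 were labelled control. NS398 is a selective inhibitor of the prostaglandin-producing enzyme COX2. It was given dissolved in DMSO in serum-free medium, and the study's methods name DMSO as the control but also call the array controls untreated. No interferon treatment is named for either group. Each sample was 1 array, and the methods of the study call the 3 samples of a group biological replicates. HT29 is 1 line grown alone in culture, which limits it as a model of antigen presentation in tissue.

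Interferons are cytokines that cells release on infection, and epithelial cells of the gut both make and answer them. Bound to their receptors, they activate STAT proteins through Janus kinases. STATs joined to IRF9 form the complex ISGF3, which binds the interferon-stimulated response element, while STAT dimers bind the gamma-activated site. The genes switched on in this way code for antiviral effectors and for parts of the class I pathway. In that pathway peptides cut by the proteasome are carried into the endoplasmic reticulum by the TAP transporter, loaded onto class I heavy chains and shown at the cell surface together with beta-2 microglobulin. In colorectal tumours this display is what cytotoxic T cells read.

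The response element is shown first because most effectors and class I and loading genes with a promoter found here share it. Promoters of 34 of the 46 genes were found in the RefSeq table (GRCh38.p14), each with 250 bases before and 50 bases after the start site. The core GAAANNGAAA, or TTTCNNTTTC on the other strand, where overlapping matches were allowed, was found for 21 of the 34 genes (61.8%), against 1195 of 27305 genes in the table (4.38%). It was found for 16 of 21 effectors (76.2%) and 5 of 7 class I and loading genes (71.4%), but for 0 of 6 factors and receptors. The gamma-activated site TTCNNNGAA, which reads the same on both strands, was in 11 of 45 member promoters (24.4%), against 7.66% of all promoters. A match is a stretch of letters and no proof of a binding site. These counts come from the genome sequence and the choice of genes, not from the arrays. The whole ISG15 promoter is printed because ISG15 was the only member called in the main comparison, with its matching bases in capitals. They begin 113 bases before the start site.
ISG15, chr1:1013247-1013546, plus strand: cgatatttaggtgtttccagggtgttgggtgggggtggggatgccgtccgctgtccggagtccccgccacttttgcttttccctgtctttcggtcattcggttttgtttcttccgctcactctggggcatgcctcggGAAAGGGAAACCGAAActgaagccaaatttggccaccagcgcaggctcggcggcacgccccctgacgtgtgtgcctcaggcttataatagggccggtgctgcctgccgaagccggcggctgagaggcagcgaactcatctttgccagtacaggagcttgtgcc

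Shorter stretches around the element, again with matching bases in capitals, are given for the other members on which the results below turn. B2M and TAP2 belong to the class I pathway, and PARP14 is an effector whose groups of arrays did not overlap.
B2M, chr15:44711366-44711395, plus strand: actctaaGAAAAGGAAACTGAAAacgggaa
TAP2, chr6:32838781-32838804, minus strand: gggaagcGAAAGCGAAAgctgccc
PARP14, chr3:122680803-122680826, plus strand: aggaaacGAAAGCGAAAgagtcaa
The next 5 genes are effectors whose brightest probe set, among the control arrays, was lowest in replicate 1.
IFIT1, chr10:89392500-89392536, plus strand: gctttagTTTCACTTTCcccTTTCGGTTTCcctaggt
IFIT3, chr10:89332428-89332451, plus strand: gattctgTTTCAGTTTCccctcaa
IFI44, chr1:78649764-78649787, plus strand: cactgagTTTCAGTTTCctttctc
IFI6, chr1:27672332-27672355, minus strand: gagagggGAAAATGAAActctgca
IFIH1, chr2:162318821-162318850, minus strand: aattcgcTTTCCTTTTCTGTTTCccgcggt
TAP2 and PARP14 held the same 10 matching letters, and so did IFIT3 and IFI44. RIGI, which was also lowest in that array, had no match in its window.

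The signals had been scaled so that each array had a mean of 500 after removal of 2% of the values at each end. Of 10 epithelial markers 8 were bright, with EPCAM at 23900 to 28318 in NS398-treated and 23145 to 28427 in control arrays, although the intestinal factors CDX1 and CDX2 were dim. By the array labels the differentiation markers CEACAM5 (4.09, NS398-treated minus control on the log2 scale) and KRT20 (1.15) were higher and VIL1 (-0.71) was lower. The part of this shift in the results was not tested. Of 9 measured leukocyte markers 7 were dim, PTPRC among them at 2.2 to 43.1, and their summed signal, nearly all of it from lysozyme (LYZ), was 28944 to 33938 in NS398-treated and 25759 to 32660 in control arrays. Of the fibroblast markers 5 of 6 were dim, and LUM was the 1 marker of another cell type that was called, at 327.9, 165.5 and 184.0 in NS398-treated arrays against 54.2, 51.7 and 33.6 in control arrays. For ACTB the control probe sets at the 3' end gave more signal than those at the 5' end, a ratio that grows as RNA breaks down, and it was 1.56 ± 0.13 in NS398-treated and 1.29 ± 0.03 in control arrays (SD, n = 3 each, exact two-sided permutation p = 0.1, the smallest this design allows). The same ratio for GAPDH was 1.10 ± 0.09 in NS398-treated and 1.03 ± 0.06 in control arrays, with overlap (p = 0.5 in the same exact test), and the part of RNA integrity in the results was not tested. In such bulk samples fewer cells expressing a gene and less RNA per cell cannot be told apart.

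Most interferon and antigen presentation genes differed little between NS398-treated and control cells. Differences are NS398-treated minus control on the log2 scale, read from the brightest probe set of each gene, and a gene was called when limma gave it an adjusted p under 0.05 over all probe sets. The signs follow the array labels. They are opposite to the direction in which the study lists every one of its NS398-responsive transcripts that could be looked up here, so with the labels exchanged all signs below would turn, each count of higher genes would become one of lower genes, and the number called in either direction would stay. Of the 45 measured members 0 were called higher and 1 was called lower, against 5.23% and 4.85% of all genes, and the share called in either direction was 2.22% of members and 10.1% of genes. Among the brighter genes, those whose log2 signal averaged above 7 (128 on the linear scale), the share was 1 of 35 members (2.86%) and 17.7% of genes. By probe set, 1 of 90 was called, against 6.43% of the array. At an unadjusted p under 0.05 there were 6 members (13.3%), against 24.5% of genes, and in 9 members (20%) the 2 groups of arrays did not overlap, against 30.6% of genes. Limma without the variance trend called 0 members. When probe sets above that limit alone were tested, 5 of 35 members (14.3%) were called, against 25.2% of genes.

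The 95% interval of the difference lay wholly within 1 on the log2 scale, which is a 2-fold change either way, for 34 of the 45 members. This was so for 8897 of all 19775 genes. Of the brighter ones it was so for 32 of 35 members, beside 8666 of 10668 genes. A difference of at least 1 was seen in 3 members, IFIT1, IFI44L and IFI44, of which the first 2 were dim and none was called. Over all 19775 genes it was seen in 3345. The median difference was 0.12 for the class I and loading genes, -0.21 for the factors and receptors and -0.18 for the effectors, beside 0.06 for all genes.

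**Figure D1:**
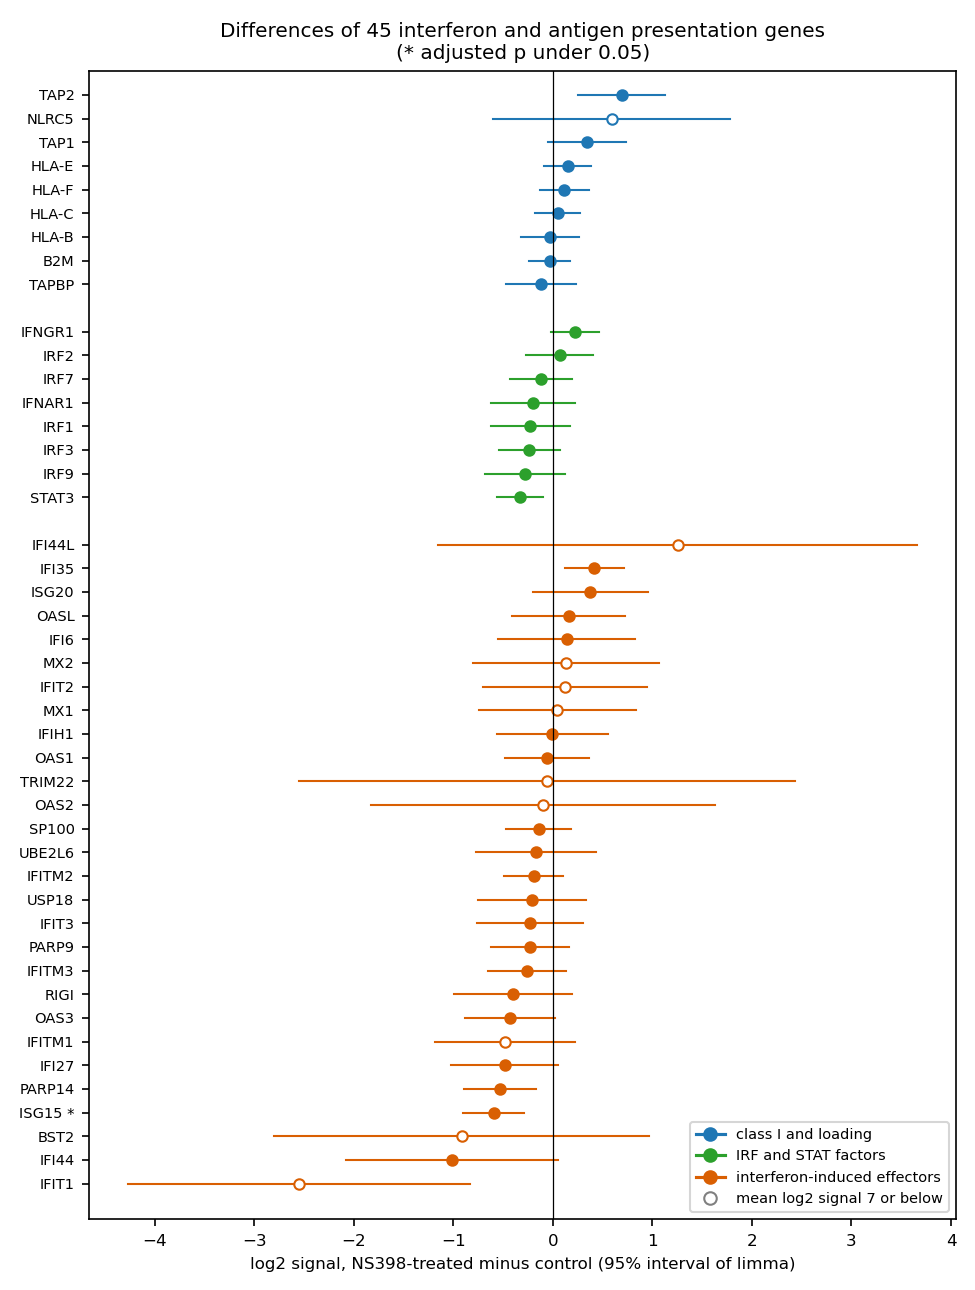
Difference in log2 signal, NS398-treated minus control, of the 45 measured genes with the 95% interval of limma. Open circles are genes with a mean log2 signal of 7 or below, and the asterisk marks ISG15, the 1 gene with an adjusted p under 0.05. The class I chains stay close to 0, and the widest intervals belong to dim effectors such as IFI44L and TRIM22.

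Genes of the class I complex had high signals that were nearly equal in both groups. B2M, the invariant light chain of every class I molecule, had signals of 28985, 28432 and 25360 in NS398-treated arrays against 25926, 31530 and 27325 in control arrays. The groups overlapped throughout, and the difference of -0.03 ± 0.09 (SE) had an interval of -0.24 to 0.18 (adjusted p = 0.907). HLA-C, a classical heavy chain that presents peptides to T cells, had 8695.3, 8425.2 and 9336.5 in NS398-treated arrays against 9621.7, 8238.5 and 7778.6 in control arrays. Here too the arrays were mixed, with the highest value in a control array and an interval of -0.18 to 0.28. The other heavy chains differed by -0.03 for HLA-B, 0.15 for HLA-E, whose product is read mainly by natural killer cells, and 0.12 for HLA-F. Other bright probe sets of these genes did not all follow. One of HLA-C had 3561.2, 2616.8 and 2603.4 in NS398-treated arrays against 2244, 1995 and 2449 in control arrays, all treated arrays above all controls (0.38, adjusted p = 0.169). One of HLA-F had 2335.4, 2520 and 2098 in NS398-treated arrays against 2881.8, 2535 and 2962.6 in control arrays, all treated arrays below (-0.27, adjusted p = 0.246). Their probe sets share sequence with each other, so a signal given for 1 of these class I genes may hold transcripts of another. TAPBP, or tapasin, which holds the heavy chain at the transporter during loading, differed by -0.11.

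The brightest probe sets of both TAP transporter subunits had higher signals in all NS398-treated arrays, although neither was called. TAP2 had 588.9, 665.1 and 699.9 in NS398-treated arrays against 343.4, 536.1 and 353.2 in control arrays. All 3 treated arrays were above all 3 controls, with control replicate 2 the nearest to them. The difference was 0.69 ± 0.20 with an interval of 0.25 to 1.13 and missed the threshold (adjusted p = 0.0683), but it passed without control replicate 2 (0.90, adjusted p = 0.0196). A second TAP2 probe set had 221.4, 341 and 130.4 in NS398-treated arrays against 181, 224.3 and 234.6 in control arrays, where the groups overlapped and the difference was 0.02 ± 0.33, and over its 3 probe sets above the brightness limit the differences ranged over 0.02 to 0.72. TAP1 had 373.1, 402.0 and 402.9 in NS398-treated arrays against 290.6, 296.9 and 345.1 in control arrays. These groups did not overlap either, and the difference of 0.34 ± 0.18 was not called (adjusted p = 0.351). NLRC5, the transactivator that switches on class I promoters, was dim, at 59.6, 71.9 and 40.4 in NS398-treated arrays against 27.3, 36.0 and 51.2 in control arrays, with overlapping groups and a difference of 0.59 ± 0.54. Over the 9 genes of the group 0 were called and the differences ranged over -0.11 to 0.69. When each array was centred on its median, which takes out a shift of 0.12 of all probe sets towards the NS398-treated arrays, the median difference of the group was close to 0 with the sign turned (-0.0046).

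All 8 measured factors and receptors were above the brightness limit, and each had an interval within 1 on the log2 scale. None was called. STAT3, which carries signals of the interleukin-6 family and also answers interferons, had 2385.2, 2602.2 and 2616.5 in NS398-treated arrays against 2999.3, 3256.0 and 3288.6 in control arrays. The treated arrays all lay below the controls, with a difference of -0.33 ± 0.10 (adjusted p = 0.0984). IFNGR1, the chain of the interferon gamma receptor that binds the ligand, had 3027.2, 2968.6 and 2728.7 in NS398-treated arrays against 2574.1, 2288.3 and 2639.1 in control arrays. These groups did not overlap in the other direction, with a difference of 0.22 ± 0.11 (adjusted p = 0.324). A second bright IFNGR1 probe set had 1568.4, 1516.3 and 1382.7 in NS398-treated arrays against 1399.3, 1418.6 and 1470.1 in control arrays. There the groups overlapped (0.06, adjusted p = 0.857).

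IRF1, an activator of class I and TAP genes under interferon gamma, had 332.2, 457.3 and 442.7 in NS398-treated arrays against 464.1, 492.7 and 473.6 in control arrays. The gap was mostly NS398 replicate 1, and the other 2 treated arrays lay just under the lowest control (-0.23 ± 0.18, adjusted p = 0.570). In a second bright IRF1 probe set the groups overlapped (-0.21, adjusted p = 0.677). IRF7, which amplifies interferon production and is itself induced by interferon, had 826.0, 884.1 and 763.0 in NS398-treated arrays against 956.1, 802.6 and 934.0 in control arrays, with overlap and a difference of -0.12 ± 0.14. IRF9, the DNA-binding part of ISGF3, differed by -0.28, IRF3, the factor activated by viral nucleic acid, by -0.24, the receptor chain IFNAR1 by -0.20 and IRF2, which opposes IRF1, by 0.07. In all 4 of these genes the groups overlapped. The median of the group was -0.21, and it was -0.34 when arrays were centred and -0.10 when all probe sets of a gene were averaged.

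**Figure D2:**
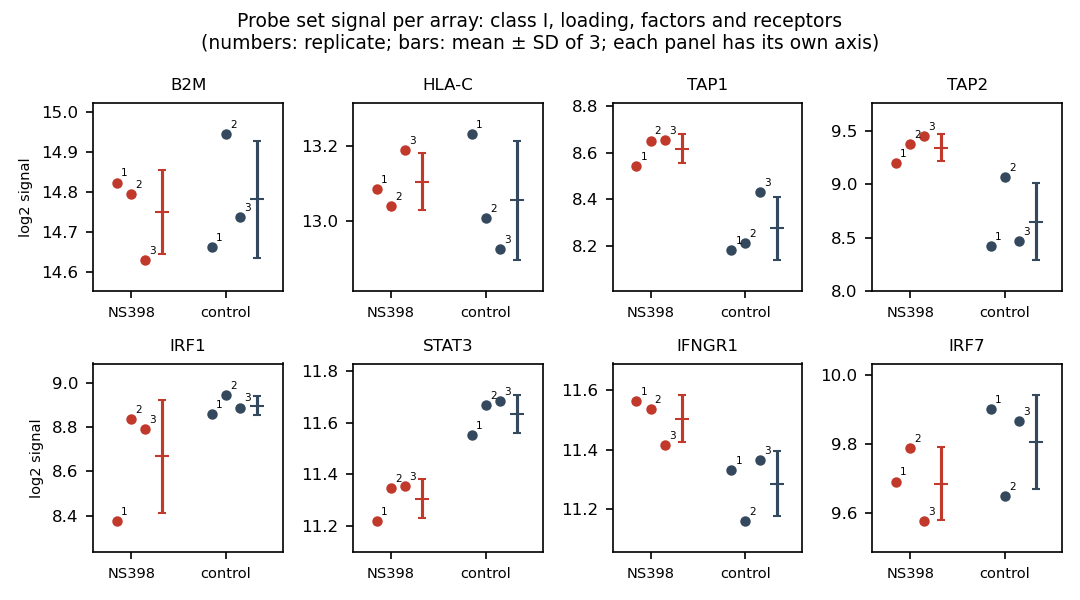
Log2 probe set signal of 8 class I, transporter, factor and receptor genes in each NS398-treated and control array, numbered by replicate, with the mean ± SD of 3 arrays and an axis of its own for each gene. The groups overlap in B2M, HLA-C and IRF7, all treated arrays are above the controls in TAP1, TAP2 and IFNGR1, and all are below them in IRF1 and STAT3.

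ISG15 was lower in the arrays labelled NS398-treated. It codes for a ubiquitin-like protein that is attached to other proteins under interferon. Its signal was 1141.9, 1326.1 and 1383.6 in NS398-treated arrays against 1644.4, 2120.0 and 2066.6 in control arrays. The groups did not overlap, and control replicate 1 was the lowest of the controls. The difference was -0.59 ± 0.14 with an interval of -0.90 to -0.29 (adjusted p = 0.0284), a signal 1.51-fold lower in arrays labelled NS398-treated. This call was kept without control replicate 1 (-0.71, adjusted p = 0.00833) and lost without any other single array (adjusted p of 0.0520 to 0.131). It was also lost without the variance trend (adjusted p = 0.266). Of the enzymes that work on ISG15, UBE2L6, which conjugates it, differed by -0.17 and USP18, which removes it, by -0.21, both with overlapping groups.

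In 3 further effectors the groups of arrays did not overlap, and none of these was called. With ISG15 this made 4 of 28 effectors without overlap, beside 30.6% of all genes. The 3 genes were chosen for description after their values were seen. PARP14, an ADP-ribosyltransferase, had 418.1, 422.6 and 543.4 in NS398-treated arrays against 676.7, 685.0 and 626.9 in control arrays, a difference of -0.53 ± 0.17 (adjusted p = 0.0898). A second PARP14 probe set, with a mean log2 signal under 7, ran the other way, at 98.1, 62.1 and 115.1 in NS398-treated arrays against 64.5, 45.2 and 72.5 in control arrays (0.58, adjusted p = 0.532). The probe sets of this gene thus had opposite signs, and neither was called. IFI35, which binds the partner protein NMI, had 893.1, 959.3 and 1001.0 in NS398-treated arrays against 752.5, 682.1 and 705.2 in control arrays, a difference of 0.41 ± 0.14 (adjusted p = 0.107). IFI27, a small mitochondrial protein of the interferon alpha response, had 140.9, 155.8 and 219.7 in NS398-treated arrays against 242.0, 240.7 and 226.6 in control arrays, and the third treated array came close to the controls (-0.48 ± 0.24, adjusted p = 0.331).

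The membrane proteins of the IFITM family block the entry of viruses. IFITM2 had 3032.3, 3870.7 and 4302.1 in NS398-treated arrays against 4651.9, 4075.0 and 3985.0 in control arrays. IFITM3 had 1795.9, 1980.9 and 2657.6 in NS398-treated arrays against 3125.6, 2066.9 and 2515.6 in control arrays. Both overlapped between groups, with differences of -0.19 ± 0.14 and -0.26 ± 0.18, and IFITM1 differed by -0.48. The IFITM genes are near copies of each other, so their probe sets may share transcripts. The antiviral GTPase MX1, often used as a marker of interferon exposure, was dim at 96.3, 84.4 and 104.9 in NS398-treated arrays against 87.3, 69.5 and 128.4 in control arrays (0.04 ± 0.36). Its groups overlapped completely, and its relative MX2 was dim too (0.13).

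The remaining effectors did not move together. Among the oligoadenylate synthetases, which sense double-stranded RNA, OAS3 differed by -0.43 (adjusted p = 0.302), OAS1 by -0.06 and OAS2 by -0.10, and the related OASL differed by 0.16. The nuclease ISG20 differed by 0.38 and PARP9, the partner of PARP14, by -0.23. SP100 of the nuclear bodies differed by -0.14 and IFIT2, an RNA-binding relative of IFIT1, by 0.12. BST2, which tethers budding viruses, TRIM22, IFI44L and OAS2 had signals under 60 on every array, and their intervals were the widest of the group. In all, 20 of the 28 effectors had differences below 0 (71.4%), against 45.3% of all genes. With arrays centred these shares were 21 of 28 (75.0%) and 54.2%. With all probe sets of a gene averaged they were 17 of 28 (60.7%) and 45.2%. Over all alternatives the share of effectors below 0 ranged from 60.7% to 78.9%.

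**Figure D3:**
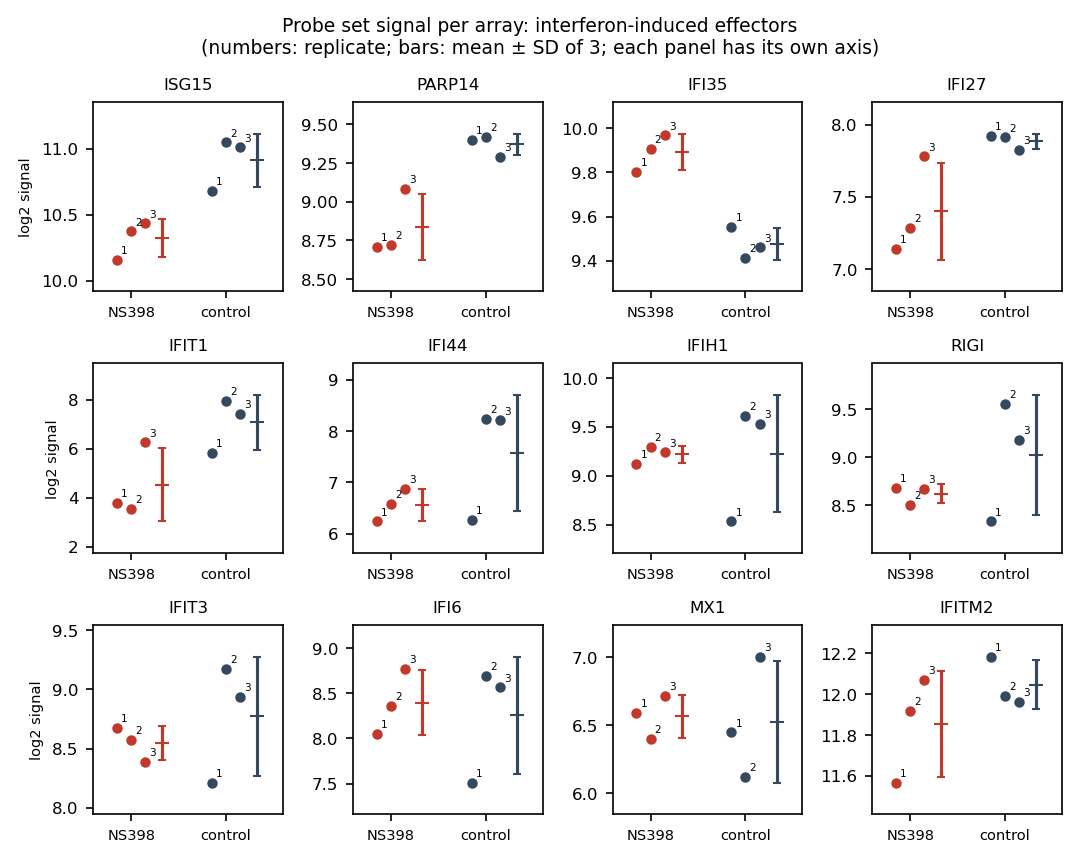
Log2 probe set signal of 12 interferon-induced effectors in each NS398-treated and control array, numbered by replicate, with the mean ± SD of 3 arrays and an axis of its own for each gene. All treated arrays lie below the controls in ISG15, PARP14 and IFI27 and above them in IFI35, while control replicate 1 lies below the other controls in IFIT1, IFI44, IFIH1, RIGI, IFIT3 and IFI6.

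A group of effectors was low in control replicate 1, an array that lay apart from the other controls in other genes too. The effectors were picked from their values, and the account is a description. Of 19 effectors above the brightness limit, 5 (26.3%) had a signal in this array at least 1.5-fold below both other controls, against 362 of 10668 genes of that brightness (3.39%). In no other array did any of the 19 lie that far below the rest of its group. On the other side, 1 of the 19 (5.26%) lay that far above both other controls in control replicate 1. That held for 327 genes of that brightness (3.07%). Over all genes of that brightness, control replicate 1 had more genes apart from its group than any other array, both below and above. IFIH1 and RIGI are cytoplasmic sensors of viral RNA. IFIH1 had 558.1, 627.6 and 604.0 in NS398-treated arrays against 370.3, 781.8 and 739.7 in control arrays. RIGI had 410.4, 363.9 and 407.1 in NS398-treated arrays against 322.3, 750.4 and 579.6 in control arrays. In both, the treated arrays lay close together and between control replicate 1 and the other controls.

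The same order was seen in the brightest probe set of IFIT3, whose product binds viral RNA together with IFIT1. It had 407.8, 380.7 and 335.5 in NS398-treated arrays against 296.1, 578.2 and 489.9 in control arrays. The second IFIT3 probe set, also bright, did not show this order. Its signals were 184, 218.4 and 120.7 in NS398-treated arrays against 216.5, 268.6 and 193.7 in control arrays, with control replicate 3 the lowest control. IFI44 had 75.5, 95.6 and 116.9 in NS398-treated arrays against 77.4, 303.6 and 296.2 in control arrays, so that control replicate 1 lay among the treated arrays. Its second probe set gave a difference of 0.07, against -1.01 for the first. IFI6, an inhibitor of apoptosis in mitochondria, had 265.2, 328.8 and 436.9 in NS398-treated arrays against 182.2, 414.1 and 378.5 in control arrays, with control replicate 1 the lowest of the 6. The brightest probe set of ISG20 came just short of the limit, at 278.1 in control replicate 1 beside 642.9 and 396.0 in the other controls. Its second probe set, also bright, lay far below the limit, at 43.9 in control replicate 1 beside 587 and 440.1.

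IFIT1, which recognises RNA lacking the host cap, had the largest fitted difference of the members, on low signals. Its signals were 13.9, 11.7 and 76.7 in NS398-treated arrays against 57.0, 251.2 and 174.0 in control arrays. NS398 replicate 3 and control replicate 1 crossed, so the groups overlapped, and the difference of -2.55 ± 0.78 had a wide interval of -4.26 to -0.83 (adjusted p = 0.0860). It passed the threshold without NS398 replicate 3 (-3.41, adjusted p = 0.0263) and without control replicate 1 (-3.17, adjusted p = 0.0438), and also with arrays centred (-2.67, adjusted p = 0.0477). With 32 added to every signal, which damps low values, the difference was -1.52. Without control replicate 1, 4 effectors were called lower in arrays labelled NS398-treated, namely IFIT1, ISG15, IFI44 (-1.67 ± 0.30, adjusted p = 0.00979) and RIGI (-0.75 ± 0.18, adjusted p = 0.0362). That is 8.89% of members, against 5.52% of all genes called lower without this array. The array left out is the one in which IFI44 and RIGI had been seen to be low, so these calls are no independent support. The mean log2 signal of the 28 effectors was 7.51, 7.77 and 7.81 in NS398-treated arrays and 7.63, 8.11 and 8.03 in control arrays, so replicate 1 was the lowest of each group. The class I genes and the factors had no gene that far below in any array.

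**Figure D4:**
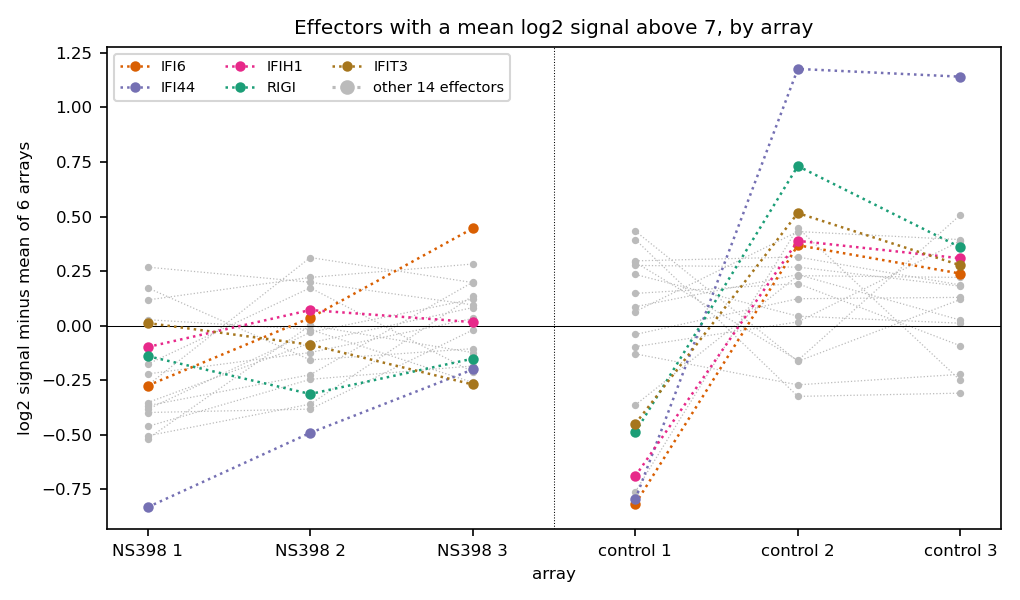
Log2 signal of the 19 effectors with a mean log2 signal above 7 in each array, as a difference from the mean of that gene over the 6 arrays. Coloured points are the 5 genes that control replicate 1 had at least 1.5-fold below both other controls, grey points are the other 14, and dotted lines join the values of a gene.

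Other genes of the same pathways, taken from lists of 97 genes written from general knowledge, were called about as often as genes in general. Of 92 that were measured 9 were called (9.78%, against 10.1% of all genes), 3 higher and 6 lower, and their median difference was -0.03. All 9 calls were lost without the variance trend, and those of ERAP2, PIAS1, TRIM25 and CD74 were lost when all probe sets of a gene were averaged. In the supply and loading of peptides 3 of 10 genes were called lower, beside 4.85% of all genes. All 3 were among the 8 genes of this list above the brightness limit, and 924 of 10668 genes of that brightness were called lower. PSME1, a subunit of the proteasome activator PA28, had 2064.7, 2106.9 and 2234.8 in NS398-treated arrays against 3393.2, 3182.2 and 3166.4 in control arrays (-0.60 ± 0.10, adjusted p = 0.00515). ERAP2, which trims peptides in the endoplasmic reticulum, had 637.7, 903.3 and 862.6 in NS398-treated arrays against 1265.0, 1348.3 and 1461.1 in control arrays (-0.78 ± 0.16, adjusted p = 0.0138). PSMB8, a catalytic subunit of the immunoproteasome, had 280.4, 342.5 and 347.4 in NS398-treated arrays against 543.6, 626.2 and 457.5 in control arrays (-0.74 ± 0.19, adjusted p = 0.0399). In all 3 genes every treated array was below every control, but the PSMB8 call was lost without any single array and the ERAP2 call without NS398 replicate 1 (adjusted p = 0.0558) or control replicate 3 (adjusted p = 0.0793).

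Of 9 class II genes 1 was called lower, beside 4.85% of all genes. CD74, the invariant chain that guards the class II groove, had 341.0, 640.9 and 655.9 in NS398-treated arrays against 1242.4, 1728.6 and 1566.5 in control arrays (-1.52 ± 0.24, adjusted p = 0.00331). The groups were far apart, and the mean over its 3 probe sets gave -0.66 (adjusted p = 0.355). The leukocyte markers PTPRC, CD3D, CD3E, CD2, MS4A1 and CD14 were dim on all arrays, under 80 in each. CSF1R was dim too but reached 125.5 in NS398 replicate 2, and LYZ was bright. ITGAM was just above the brightness limit, at 62.4, 132.2 and 109.7 in NS398-treated arrays against 115.2, 204.2 and 224.7 in control arrays. Its groups overlapped, with a difference of -0.85 (adjusted p = 0.255). Which cells gave the CD74 signal was not tested. Among 16 interferons, receptors and kinases 1 was called lower, against the same 4.85% of all genes. It was PIAS1, a SUMO ligase that restrains STAT proteins. PIAS1 had 1087.0, 1082.4 and 1109.4 in NS398-treated arrays against 1433.1, 1563.2 and 1743.3 in control arrays (-0.53 ± 0.13, adjusted p = 0.0295). Its call was lost without any single array other than control replicate 1. Among 14 genes of nucleic acid sensing 1 was called higher, beside 5.23% of all genes. It was TRIM25, the ubiquitin ligase that acts on RIGI. Its signals were 6007.5, 5181.8 and 6081.6 in NS398-treated arrays against 4407.0, 3390.7 and 3475.5 in control arrays (0.62 ± 0.12, adjusted p = 0.0122). TRIM25 was no longer called without NS398 replicate 1, NS398 replicate 3 or control replicate 3, nor with arrays centred.

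Among 43 further effectors 2 were called higher and 1 lower, beside 5.23% and 4.85% of all genes. WARS1, the tryptophanyl-tRNA synthetase that interferon gamma induces, had 5494.4, 5503.1 and 5617.1 in NS398-treated arrays against 1609.9, 1907.2 and 2043.2 in control arrays. The treated arrays were close together and about 3.00-fold above the controls (1.59 ± 0.11, adjusted p = 2.92e-05). PNPT1, a mitochondrial exoribonuclease, had 4638.3, 4487.7 and 4372.1 in NS398-treated arrays against 3002.7, 3165.0 and 3089.2 in control arrays (0.54 ± 0.10, adjusted p = 0.00605), a call that was lost with arrays centred (adjusted p = 0.110). LGALS9, or galectin-9, had 272.2, 254.5 and 233.9 in NS398-treated arrays against 498.4, 433.4 and 470.9 in control arrays (-0.88 ± 0.18, adjusted p = 0.0130), and its call was lost without NS398 replicate 2 (adjusted p = 0.0556) or control replicate 3 (adjusted p = 0.0652).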

How the data were processed

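The authors summarised the scans into deposited intensity values, 1 linear probe set signal per array, scaled to a trimmed mean of 500. These lie between 0.1 and 80608 and do not share quantiles, so they have the scale of MAS signals and not that of the gcRMA values in the study's methods. Affy is the package named by the submitters' processing notes, and its version is not given in the sources used here. Log2 signals without offset were tested with lmFit and eBayes of limma 3.58.1 (R 4.3.3), with a robust variance trend and treatment as the only term, and Benjamini-Hochberg adjustment ran over all 54675 probe sets. SAM, which the study used, was not run. In data simulated for this comparison on 54675 probe sets, with changes planted only where the mean log2 signal was above 7, the fit recovered 71 of 100 planted 2-fold and 95 of 100 planted 4-fold changes with 11 false calls among 54475, while limma without the trend recovered 0 of either. The simulated spread depended on signal level alone, as the trend assumes, so these figures need not hold for the real arrays. Of the probe sets 41097 (75.2%) named 1 gene, 1801 (3.29%) several and 11777 (21.5%) none, and a gene was read from its brightest probe set. Median signals were 65.0 to 80.2 per array, and the number of arrays limits the precision. Arrays correlated at 0.961 to 0.983 within and 0.931 to 0.952 between groups, over probe sets averaging above log2 7.

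Members and lists were chosen with earlier results of these data known, and so was the trend. By rule, values per array are given for called members, non-overlapping members with a difference of at least 1, the 2 members of each group with the highest signal and a few with a key role (NLRC5, IRF1, IRF7, ISG15, IFIT1, MX1). TAP1, TAP2, PARP14, IFI35, IFI27, IFI44, IFIH1, RIGI, IFIT3, IFI6 and ISG20 were added after their values were seen. Each other pathway gene that was called is named. Alternatives were array weights, a filter at log2 signal 7, means of all probe sets, median centring, quantile normalisation, an offset of 32, limma without the trend, a replicate block and leaving out each array. Sequences are from RefSeq (GRCh38.p14).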

Additional observations from a re-analysis of the deposited data

How the results depend on the processing

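Of the 45 members 37 were called under none of 14 alternatives. In 17 members the sign of the difference changed under at least 1 alternative, with no call on either side. Of the 8 that were ever called this was so for 1, PARP14, which had 0.02 with the mean of all probe sets. With array weights 1 class I gene was called higher and 2 effectors lower, so 1 and 2 members in all. With only probe sets above a mean log2 signal of 7 tested, 1 class I gene and 1 effector were called higher, 1 factor and 2 effectors lower, so 2 and 3 members in all (14.3% of those tested, against 25.2% of genes), and 5 and 11 of the other pathway genes. The genes added by this filter, which tests fewer probe sets, were TAP2, IFI35, STAT3 and PARP14. With the mean of all probe sets 3 other pathway genes were called lower and the median of the factors was -0.10. With median centring 2 effectors, and 2 members in all, were called lower, 1 other pathway gene was called higher, the median of the factors was -0.34 and 864 probe sets were called higher, against 1782 without centring. Limma without the trend called 0 members, 0 other pathway genes in either direction, and 19 probe sets higher and 5 lower, its prior having 1.36 degrees of freedom, against a median of 7.07 with the trend. The cause was not tested for the rest.

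Leaving out each array in turn gave 0 to 1 class I genes and members called higher, 0 to 4 effectors and members called lower, 2 to 7 other pathway genes called lower, a median of -0.22 to -0.13 for the factors, and 894 to 2020 probe sets called higher and 827 to 1964 lower. The 4 lower effectors came without control replicate 1, and 0 came without NS398 replicates 1 or 2 or control replicates 2 or 3. With a replicate block 1 member was called lower and 0 higher, ISG15 again (adjusted p = 0.0423), and the calls of PSMB8 (0.0853) and PIAS1 (0.0829) were lost. Same-numbered arrays had deviations from their group means correlated at -0.14, -0.06 and -0.10. With 3 arrays per group such deviations are tied to each other, so these values cannot tell whether the arrays were paired. A mean log2 signal of 7 or below was found in 10 of the 45 members by the probe set used, and in 30 of their 90 probe sets.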

Other observations

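A pair of probe sets named a member together with another gene and were left out above. The probe set shared by IFITM2 and IFITM1 had 61.7, 84.4 and 88.1 in NS398-treated arrays against 87.2, 170.4 and 129.7 in control arrays (-0.69, adjusted p = 0.358 in limma), with treated replicate 3 just above control replicate 1. The probe set shared by RNF31 and IRF9 had 210.4, 231.7 and 234.4 in NS398-treated arrays against 137.5, 245.8 and 238.0 in control arrays (0.17, adjusted p = 0.807). Its lowest value was again that of control replicate 1.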
